A study of Oryctolagus cuniculus with 4 samples.

Results

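The genes described here are those of the heat shock and antioxidant defence of the rabbit blastocyst. They were chosen by the words of the array's annotation. A probe was taken where its description held heat shock or DnaJ (chaperones), or superoxide dismutase, glutathione peroxidase, peroxiredoxin, thioredoxin, catalase, heme oxygenase or metallothionein (antioxidants). This gave 160 of the 43603 probes of the array, which are 75 of its 22601 genes or transcripts. Of these, 40 genes were chaperones (78 probes) and 35 were antioxidants (82 probes). No probe fell in both. A chosen gene was given by the brightest of its probes that held these words, and any other gene by its brightest probe.

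Chaperones bind unfolded proteins. HSP70 proteins hold and release them with the use of ATP, DnaJ proteins (also called HSP40) bring clients to HSP70 and start its ATP hydrolysis, and the transcription factor HSF1 switches on many chaperone genes in stress. Antioxidant enzymes work in series. Superoxide dismutases turn superoxide into hydrogen peroxide, and catalase, glutathione peroxidases and peroxiredoxins remove the peroxide, the last of these with thioredoxin as the donor of electrons. The preimplantation embryo is known to be sensitive to peroxide and to heat.

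The embryos were New Zealand White rabbit blastocysts of day 6. Parthenote blastocysts came from oocytes that were activated with electrical pulses and then held in cycloheximide and 6-DMAP, and were transferred to recipient does. Both of their genome copies are maternal. The in vivo fertilised blastocysts were untreated and came from inseminated does. RNA was pooled from several blastocysts, and each of 4 arrays received a parthenote pool labelled with Cy3 and a fertilised pool labelled with Cy5. Dyes were not swapped on any array, so dye and group cannot be told apart. The study's methods describe the pools of a group as independent, and p-values measure the spread between the 4 pairs of pools. Activation, transfer and parentage came together in the parthenotes and cannot be told apart either.

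A spot was taken as detected where the scanner software marked it as well above its background. Each array had 43803 spots besides the controls, and 25805 to 26339 of them were detected in Cy3 (parthenotes) and 27508 to 27835 in Cy5 (fertilised embryos). Both groups gave a detected signal on every array for 32 of the 40 chaperone genes and 29 of the 35 antioxidant genes. Only 7 of the 75 genes were well above background in neither channel of any array. They were SOD3, NME8, TXNDC16, HSPA12B, HSPB7, DNAJC5B and DNAJC5G. No gene was saturated. The measured trophectoderm markers, genes of the outer cells of the blastocyst, were detected in both groups on every array (7 of 7 genes, 9 listed). So were those of the epiblast (3 of 3, 7 listed). A gene rose or fell where the adjusted p of limma was under 0.05. By log2 ratio, KRT8 (0.58, adjusted p = 0.04) and POU5F1 (0.21, adjusted p = 0.0114) rose in parthenotes and GATA2 (-0.64, adjusted p = 0.0443) fell. None of these calls held whichever array was left out (highest 0.145, 0.0719 and 0.166). The other trophectoderm and epiblast markers did not pass. Markers of other cells were also measured, since they moved with the groups. Over all genes tested, 9.21% rose and 11.4% fell. Of 9 measured genes of motile ciliated cells (20 listed), 5 rose in parthenotes and 0 fell. Their summed signal was between 289 and 922 in the parthenote channels and between 121 and 192 in the fertilised channels. Their regulator FOXJ1 was above background in neither. Of 4 measured genes of the secretory epithelium of oviduct and uterus (9 listed), 3 rose and 0 fell, with sums of 5850 to 25660 against 707 to 2258. Of 8 measured leukocyte genes (10 listed), 5 rose and 0 fell (922 to 1075 against 573 to 617), with PTPRC and CD3E above background in neither. Of 4 measured erythroid genes (7 listed), 2 rose and 0 fell (13210 to 31930 against 4296 to 11360). Among the called markers of other cells, only OVGP1 and LCP1 stayed under the threshold whichever array was left out (highest adjusted p 0.0369 and 0.0468). The part of these markers of other cells in the results that follow was not tested. In pooled RNA, fewer cells of a type and less RNA per cell cannot be told apart.

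The probes of the genes on which the results turn are shown as the array files give them, 5′ to 3′. The files give their positions but name no genome build, exon or UTR. The first lines pair the probe of an inducible HSP70 gene with that of HSPA2, and that of GPX1 with that of GPX5. Capitals mark the bases that are the same in both probes of a pair at their best alignment without gaps, 29 of 36 aligned bases for the HSP70 pair and 34 of 59 for the peroxidase pair. Transcripts of close relatives may bind to the same probe in families such as HSP70, the glutathione peroxidases and the metallothioneins. This was not tested here, and no metallothionein pair was aligned. The last lines, in lower case, are the probes of other genes that differed between the groups.
HSPA1A, chr12:20630442-20630501, minus strand: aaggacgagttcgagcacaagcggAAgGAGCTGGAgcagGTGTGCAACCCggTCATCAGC
HSPA2, chr20:12233116-12233175, plus strand: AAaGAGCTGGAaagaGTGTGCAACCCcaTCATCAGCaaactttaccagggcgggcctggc
GPX1, chr9:16889786-16889845, minus strand: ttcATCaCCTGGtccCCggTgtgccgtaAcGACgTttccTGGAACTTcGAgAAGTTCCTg
GPX5, chr12:10427488-10427547, minus strand: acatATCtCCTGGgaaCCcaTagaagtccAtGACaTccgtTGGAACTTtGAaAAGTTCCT
TXNIP, chr13:42738507-42738691, plus strand: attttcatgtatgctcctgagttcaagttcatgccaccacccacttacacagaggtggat
GPX7, chr13:114096344-114096403, minus strand: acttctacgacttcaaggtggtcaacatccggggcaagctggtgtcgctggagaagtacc
MT3, chr5:12893705-12894558, plus strand: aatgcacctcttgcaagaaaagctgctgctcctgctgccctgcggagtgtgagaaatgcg
DNAJB11, chr14:78985693-78985752, minus strand: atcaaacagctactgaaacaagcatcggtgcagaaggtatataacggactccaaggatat
DNAJC18, chr3:21658091-21658150, minus strand: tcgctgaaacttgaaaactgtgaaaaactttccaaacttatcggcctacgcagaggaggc
All probes are 60 bases long. Those of TXNIP and MT3 cover 185 and 854 bases of the genome, so they join separate stretches of it.

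All ratios below are log2 ratios of parthenote over fertilised embryos within an array. A gene was called where the adjusted p of limma was under 0.05 over the 22598 genes tested. Of the 40 chaperone genes, 3 rose in parthenotes and 9 fell (7.5% and 22.5%). Over all genes tested, 9.21% rose and 11.4% fell. The count of chaperones that fell was 7, 5, 3 and 1 without array 1, 2, 3 and 4, 5 by the methods' t-test and 28 where arrays were centred on the median without a correction for intensity (median centring), and that of those that rose was 1, 1, 1 and 0 without each array. Among genes detected in both groups on every array, 8 of 32 chaperone genes fell (25.0%), and 15.4% of all 12164 such genes. Of the 35 antioxidant genes, 4 rose and 3 fell (11.4% and 8.57%), a share near that of all genes in each direction. Without array 1, 2, 3 and 4 the antioxidants that rose were 2, 1, 2 and 0 and those that fell 4, 1, 2 and 1. The median log2 ratio was -0.07 for chaperones, 0 for antioxidants and 0 for all genes tested, of which 2975 had a mean of exactly 0. Among genes detected in both groups on every array it was -0.06 for chaperones, -0.01 for antioxidants and -0.02 for all. After normexp background correction with loess it was -0.009 for chaperones, 0.005 for antioxidants and -0.008 for all genes tested, so the gap depended on the processing. When single probes were counted, 8 of 78 chaperone probes rose and 21 fell, against 9.53% and 11.1% of all probes, and of 82 antioxidant probes 5 rose and 5 fell. Probes of 1 gene are not independent, and a few DnaJ genes with 3 to 5 probes each make up most of the 21. Changes were small. Only HSPB2 among the chaperones and TXNIP, GPX6, GPX7 and NME9 among the antioxidants had a mean ratio beyond 1 in either direction, and HSPB2 and NME9 did not pass.

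**Figure D1:**
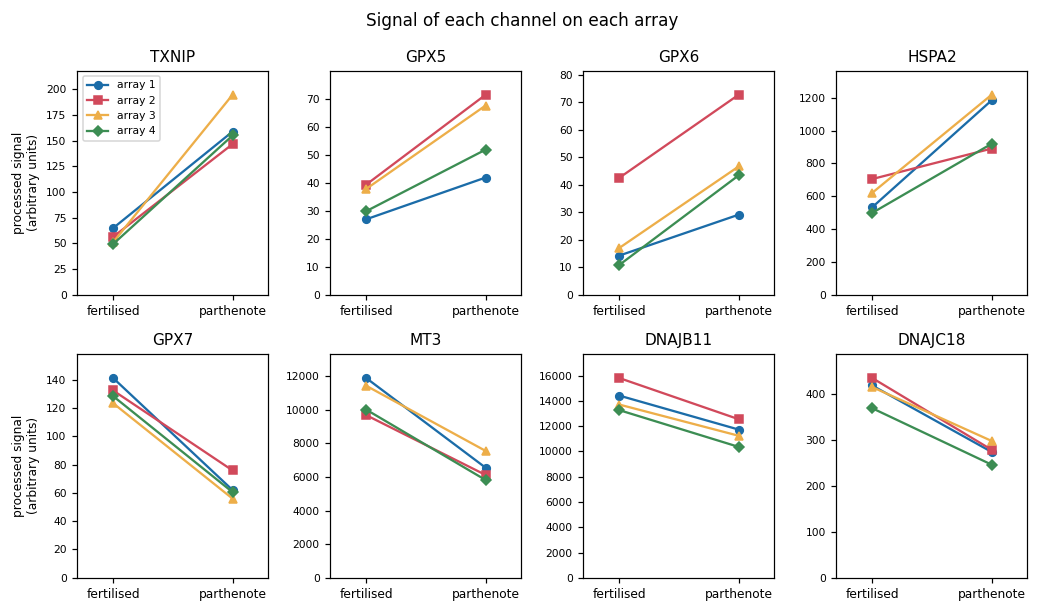
Processed signal in arbitrary units (vertical axes, from 0) of the fertilised and parthenote channels of each of the 4 arrays, joined by a line per array, for 4 genes called higher and 4 called lower in parthenotes. All lines of a gene run the same way, and only GPX6 has parthenote signals (29.1 at the lowest) that overlap the fertilised ones (42.5 at the highest).

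TXNIP, which binds thioredoxin and holds it inactive and also curbs glucose uptake, rose most among the antioxidant genes that passed. Its signal in parthenotes was 159, 147, 195 and 155 on arrays 1 to 4, and in fertilised embryos 64.8, 56.2, 51.0 and 49.2. The groups did not overlap. The log2 ratio was 1.57 ± 0.29 (SD, n = 4), a 2.96-fold higher level (adjusted p = 0.0132, limma). The adjusted p was 0.0608 without array 2 and 0.0786 without array 4. Its partners did not pass. Cytosolic thioredoxin, TXN, had a ratio of 0.14 ± 0.085 (adjusted p = 0.103) and the mitochondrial form, TXN2, -0.16 ± 0.14 (adjusted p = 0.188). The reductases TXNRD2 and TXNRD3, which recharge thioredoxin, both had mean ratios of 0.17, with a 95% confidence interval of -0.02 to 0.36 for TXNRD2 and -0.21 to 0.55 for TXNRD3.

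Glutathione peroxidases moved in both directions, 2 of 5 up and 1 of 5 down, beside 9.21% up and 11.4% down over all genes tested. GPX5, a secreted peroxidase known from the epididymis, gave 41.8, 71.4, 67.5 and 51.8 in parthenotes and 26.9, 39.2, 37.7 and 29.8 in fertilised embryos. Each parthenote value lay above all the fertilised ones. Its ratio was 0.78 ± 0.10 (1.72-fold, adjusted p = 0.00827), and the adjusted p was 0.0599 without array 4. GPX6, a peroxidase known from the olfactory epithelium, had signals of 29.1, 72.7, 46.6 and 43.4 against 14.2, 42.5, 16.9 and 10.7. Its fertilised channel was well above background on 3 arrays. The ratio was 1.32 ± 0.54 (adjusted p = 0.0462), the adjusted p lay between 0.098 and 0.162 with any 1 array left out, and it was 0.0542 without the pairing of channels by array. GPX7, an enzyme of the endoplasmic reticulum that passes peroxide on to protein folding, had signals of 62.0, 75.8, 55.9 and 60.5 in parthenotes and 141, 132, 123 and 128 in fertilised embryos. It fell in parthenotes by 1.05 on the log2 scale (SD 0.17, 2.08-fold, adjusted p = 0.0114), with 0.057 without array 3 and 0.0719 without array 4. GPX1, the main cytosolic peroxidase, was at 22040 to 26190 in parthenotes and 24190 to 26630 in fertilised embryos, and its ratio of -0.11 ± 0.14 did not pass (adjusted p = 0.30). These ratios of dim probes were smaller after normexp background correction with loess, which adds an offset of 50 to each signal. GPX5 was then at 0.31, GPX6 at 0.39, GPX7 at -0.49 and TXNIP at 0.84, and all 4 passed. The brightest probe of GPX8 did not pass (-0.24 ± 0.23, adjusted p = 0.215), and 1 of its 3 probes did (-0.44, adjusted p = 0.034).

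Metallothioneins bind zinc and copper and take up radicals. MT3 was measured at 6552, 6120, 7552 and 5819 in parthenotes and at 11890, 9681, 11430 and 10010 in fertilised embryos. The lowest fertilised pool was above the highest parthenote pool. The ratio fell by 0.73 (SD 0.12, 1.65-fold, adjusted p = 0.0113), and its second probe gave -0.64 (adjusted p = 0.0227). Without array 2 or array 4 the adjusted p was 0.0572 and 0.0692. MT4 had ratios of -0.81, -0.14, -1.48 and -0.67 and did not pass (adjusted p = 0.127), and its parthenote channel was above background on 2 arrays. On array 2 its signals were 112 and 124, against 12.9 to 48.8 in both channels of the other arrays. Of 3 measured regulators of metal balance, MTF1, the transcription factor that switches on metallothionein genes in response to zinc, fell by 0.20 (SD 0.043, adjusted p = 0.017). Without array 1, 3 or 4 the adjusted p of MTF1 was 0.0629, 0.0599 and 0.0906. SLC39A10 (0.41) did not pass, and SLC39A14 was detected in neither group.

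No superoxide dismutase passed. Signals of SOD1, the cytosolic enzyme, were 80540, 99100, 95510 and 87970 in parthenotes and 92810, 89200, 85060 and 83230 in fertilised embryos. These overlapped, and the ratio was 0.049 ± 0.17 with a 95% confidence interval of -0.23 to 0.32. SOD2, its mitochondrial counterpart, was lower in the parthenote channel of every array, with 3010, 3982, 3348 and 3364 against 4757, 4295, 4958 and 4690. The groups did not overlap, but array 2 differed least, and the ratio of -0.45 ± 0.24 missed the threshold (adjusted p = 0.0747). With 1 array left out the adjusted p was 0.0524 to 0.233, and by the methods' t-test 0.105. It passed without the pairing of channels by array (0.0171), and with the dim-probe filter, the ratio of the processed signals or normexp with loess (0.0211, 0.026 and 0.0281). With the filter and with the processed signals the ratios of SOD2 itself did not change. Only limma's variance estimate, which draws on all genes tested, and the adjustment differed there. HMOX1, the inducible enzyme that breaks down heme, gave 42.5, 78.1, 71.0 and 65.0 in parthenotes and 124, 131, 105 and 99.4 in fertilised embryos. These did not overlap either. Its ratio of -0.87 ± 0.46 did not pass (adjusted p = 0.0737), and the adjusted p was 0.0375 without array 1, where the ratio was -1.54, but 0.198, 0.164 and 0.187 without arrays 2, 3 and 4. It was 0.104 by the methods' t-test and 0.0186 without the pairing. Normexp with loess brought the ratio of this dim probe to -0.30 (adjusted p = 0.0886). HMOX2, the constitutive form, had a ratio of 0.21 ± 0.18 and CAT, catalase, one of -0.010 ± 0.22. Among the peroxiredoxins, PRDX3 of mitochondria had -0.17 ± 0.10 (adjusted p = 0.0924), PRDX4 of the endoplasmic reticulum -0.20 ± 0.13 (adjusted p = 0.111) and PRDX6 0.034 ± 0.13 (adjusted p = 0.779). None passed.

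Of 13 proteins with a thioredoxin domain, 1 rose and 1 fell (7.69% each), beside 9.21% and 11.4% over all genes tested. ERP44, which retains proteins in the early secretory pathway, had ratios of 0.096, 0.062, 0.072 and 0.047, a mean difference of 1.05-fold (adjusted p = 0.032), and the sign turned to -0.89 with median centring. Its adjusted p was 0.0609 to 0.119 with 1 array left out and 0.448 without the pairing. TXNDC11, a partner of the peroxide-forming DUOX enzymes, had ratios of -0.21, -0.22, -0.24 and -0.31 (mean -0.24 ± 0.045, adjusted p = 0.0138). Without array 2 or array 3 the adjusted p was 0.0644 and 0.0658, and it was 0.236 without the pairing. NME8 and NME9 are thioredoxin-domain proteins known from sperm tails and motile cilia. NME9 had ratios of 1.27, 1.68, 3.17 and 0.80. It did not pass (1.73 ± 1.03, adjusted p = 0.0916). Its fertilised channel was above background on 0 arrays and its parthenote channel on 1, so no fold is given. NME8 was not well above background in either. The markers of motile cilia that rose stand beside these values, and their part in them was not tested.

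**Figure D2:**
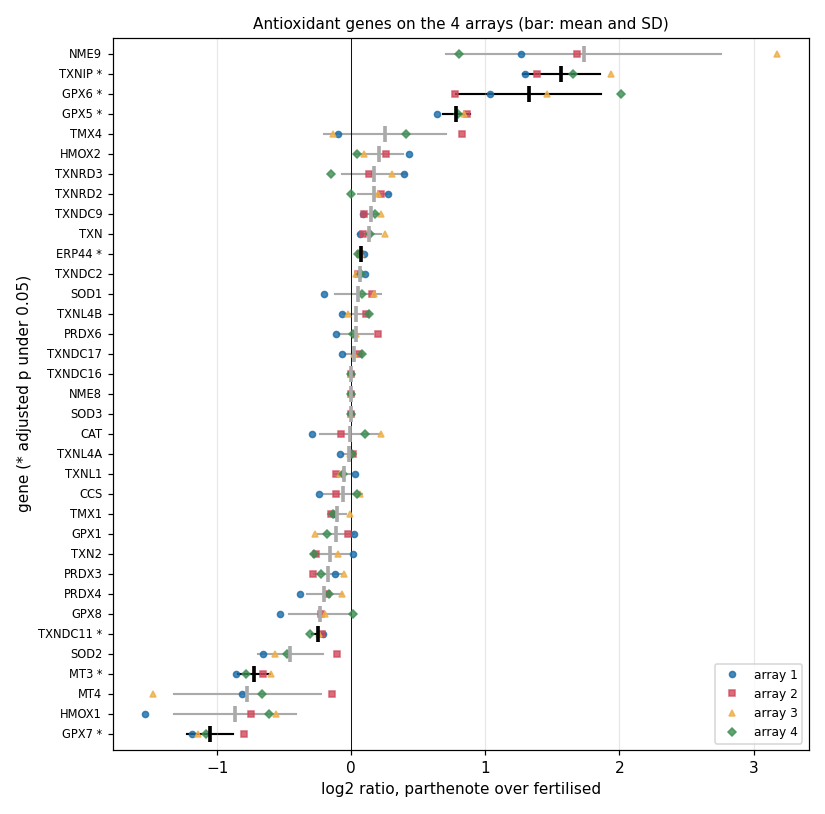
Log2 ratio of parthenote over fertilised embryos (horizontal axis) of the 35 antioxidant genes on each of the 4 arrays, with the mean and SD as a bar, black where the adjusted p was under 0.05. TXNIP (1.57) and GPX6 (1.32) lie at the upper end among the genes that passed and GPX7 (-1.05) and MT3 (-0.73) at the lower end, while SOD1, CAT, PRDX6 and GPX1 lie close to 0 and ERP44, called at 0.069, turned to -0.89 with median centring.

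Turning to the chaperones, 8 of 24 DnaJ genes fell and 1 rose. Over all genes tested 11.4% fell and 9.21% rose, and over those detected in both groups on every array 15.4% and 13.8%. DNAJB11, which serves the HSP70 of the endoplasmic reticulum, had signals of 11730, 12550, 11240 and 10360 in parthenotes and 14420, 15810, 13710 and 13270 in fertilised embryos. No parthenote value reached the lowest fertilised one. The ratio fell by 0.32 (SD 0.033, 1.25-fold, adjusted p = 0.00671), its 3 probes gave -0.32, -0.24 and -0.31, and all 3 passed. It was the only called gene of the 19 that stayed under the threshold whichever array was left out (adjusted p 0.0294 to 0.0451). DNAJC18, a membrane protein of the endoplasmic reticulum, gave 274, 278, 298 and 246 against 418, 434, 415 and 369. Groups were again apart, and the ratio fell by 0.58 (SD 0.071, 1.49-fold, adjusted p = 0.00778) with 3 of 3 probes past the threshold, at -0.58, -0.61 and -0.70. Without array 4 its adjusted p was 0.057.

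Among the called DnaJ genes with proteins of mitochondria the directions differed. Of the DnaJ genes not called, DNAJA3 had a ratio of -0.0028 ± 0.17. DNAJC19 and DNAJC15 are both known as partners of the motor that pulls proteins into the matrix. DNAJC19 had ratios of 0.24, 0.24, 0.38 and 0.30 and rose by 1.22-fold (mean 0.29 ± 0.064, adjusted p = 0.0174), with 4 of its 5 probes past the threshold and the fifth at 0.14 (adjusted p = 0.127), but with median centring it turned to -0.70. DNAJC15 had -0.25, -0.33, -0.29 and -0.29 and fell by 0.29 (SD 0.035, adjusted p = 0.00788). DNAJC11, known as a partner of the inner membrane's organising complex, had -0.42, -0.18, -0.45 and -0.46 (adjusted p = 0.0368). Array 2 stood apart, and without it the adjusted p was 0.0296. DNAJC19 missed the threshold without array 1, 2 or 4 (0.0537, 0.0681 and 0.0935), DNAJC15 without array 4 (0.0574), and DNAJC11 without array 1, 3 or 4 (0.115, 0.135 and 0.144).

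Of the other DnaJ genes that fell, DNAJC25 did so in 5 of 5 probes, between -0.35 and -0.40. Its brightest probe had ratios of -0.25, -0.52, -0.33 and -0.31 (adjusted p = 0.032), and the adjusted p was 0.0712, 0.118 and 0.125 without array 1, 3 or 4. DNAJA1, the main cytosolic partner of HSP70, fell in 3 of 3 probes, by 0.13 to 0.23. Its brightest probe had an adjusted p of 0.0299, of 0.0776 to 0.117 with any array left out, and of 0.227 without the pairing. DNAJC8, a protein of the splicing machinery, fell by 0.19 (SD 0.049, adjusted p = 0.0221), and the adjusted p was 0.0506 to 0.105 with any array left out. DNAJC16 had -0.55, -0.90, -0.61 and -1.33 (adjusted p = 0.0488, and 0.0935 to 0.165 with any array left out), and its parthenote channel was above background on 2 of 4 arrays. Normexp correction with loess brought it to -0.16 (adjusted p = 0.102). DNAJC2, DNAJC6 and DNAJC9 did not pass by their brightest probe, and 1 probe of each did, at -0.14 (adjusted p = 0.0125), 0.39 (0.0308) and 0.15 (0.0249).

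**Figure D3:**
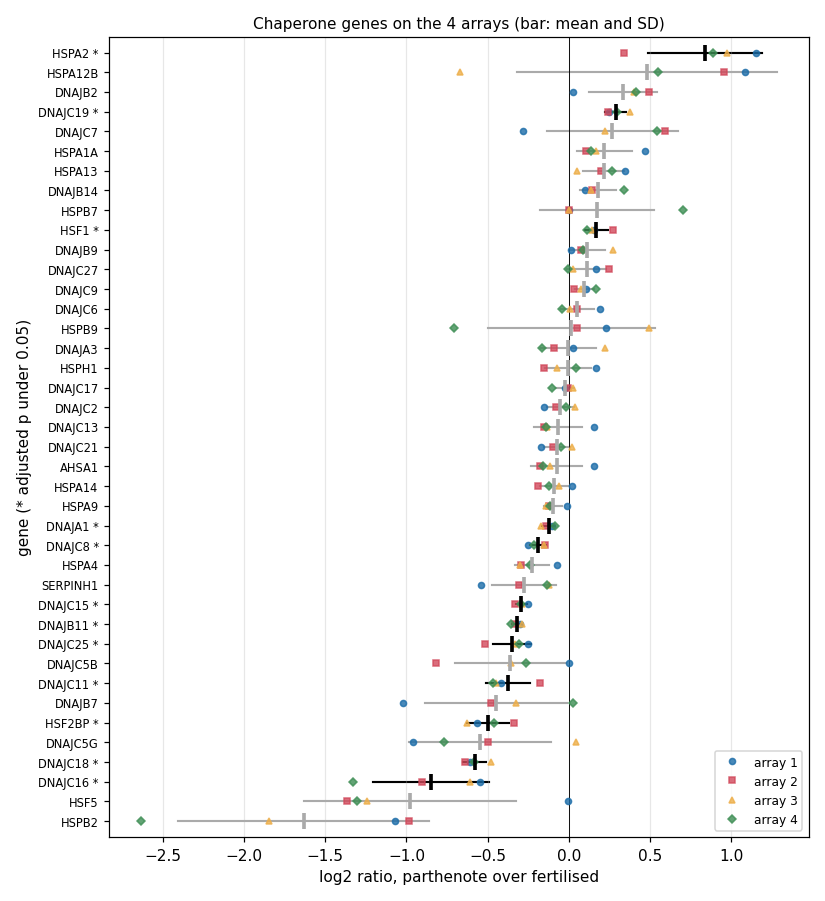
Log2 ratio of parthenote over fertilised embryos (horizontal axis) of the 40 chaperone genes on each of the 4 arrays, with the mean and SD as a bar, black where the adjusted p was under 0.05. DNAJB11 and DNAJC18 are lower on all arrays with a narrow spread, HSPA2 is higher on all, and array 1 gives the highest ratio for 8 of 8 HSP70 and HSP110 genes. DNAJC19 and HSF1, both called higher, turned to -0.70 and -0.67 with median centring.

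Of 8 HSP70 and HSP110 genes, 1 rose and 0 fell, beside 9.21% and 11.4% over all genes tested. HSPA2, an HSP70 known for its high level in male germ cells, had signals of 1185, 891, 1219 and 920 in parthenotes and 532, 705, 620 and 498 in fertilised embryos. The groups did not overlap, though array 2 showed the smallest gap. The ratio was 0.84 ± 0.35 (1.79-fold, adjusted p = 0.0486), with 0.123, 0.167 and 0.177 without array 1, 3 or 4, and it was 0.04 (adjusted p = 0.894) with median centring. HSPA1A, the heat-inducible HSP70, was at 269, 251, 225 and 207 in parthenotes and at 195, 233, 201 and 188 in fertilised embryos. Its ratio of 0.22 ± 0.17 did not pass (adjusted p = 0.147). HSPA9, the HSP70 of mitochondria, had -0.10 ± 0.057 (adjusted p = 0.0919) and HSPH1, an HSP110 that recharges HSP70, -0.0043 ± 0.14. HSPA4, a relative of HSP110, had ratios of -0.07, -0.29, -0.30 and -0.24. By its brightest probe it missed the threshold (adjusted p = 0.0607), by its second probe it passed (-0.24, adjusted p = 0.0457), and without array 1 the adjusted p was 0.0309. HSPA9 was likewise at 0.0326 without array 1.

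On array 1 the ratio of HSP70 and HSP110 genes was the highest of the 4 arrays in 8 of 8 genes, HSPA12B below background among them. Of all 12151 genes detected in both groups on every array, with ratios that were not all equal, 35.0% had their highest ratio on array 1. Chaperones as a whole had it there in 16 of 40 and DnaJ genes in 6 of 24. The median ratio of the HSP70 and HSP110 genes was 0.25 on array 1 and -0.0083, -0.07 and 0.09 on arrays 2 to 4. The pattern was seen after the values were known and is a description of these arrays.

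Other chaperone genes seldom passed. HSF1 had ratios of 0.15, 0.27, 0.14 and 0.11, a mean of 0.17 ± 0.070 (adjusted p = 0.0478). It missed the threshold with any array left out (0.0575 to 0.143) and without the pairing (0.107), and with median centring it turned to -0.67. HSF2BP, a binding partner of HSF2 that is known from meiotic recombination, had -0.56, -0.34, -0.63 and -0.46 and fell by 0.50 (SD 0.13, 1.41-fold, adjusted p = 0.0214), with 0.050 to 0.101 with 1 array left out, at or above the threshold. HSF5, a heat shock factor of male germ cells, had ratios of -0.0028, -1.37, -1.24 and -1.30, and array 1 stood apart. It did not pass (adjusted p = 0.115), and without array 1 the adjusted p was 0.0178. Its parthenote channel was above background on array 1 only. HSPB2, a small heat shock protein of muscle, had ratios of -1.07, -0.99, -1.84 and -2.63 (adjusted p = 0.06). Its parthenote channel was above background on 0 arrays and its fertilised channel on 4, and against the dimmest detected signal of the parthenote channels it was at least 1.18-fold lower in parthenotes, a bound taken from background-corrected signals after loess and quantile scaling and open to dye bias. SERPINH1, the collagen chaperone, and AHSA1, which activates HSP90, had -0.28 ± 0.20 and -0.08 ± 0.16 and did not pass.

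Where a gene had more than 1 probe, the probes mostly gave like ratios. Of 34 such genes, the call differed between probes in 6 and the sign in 3, and the mean ratios of the probes of a gene spanned a median of 0.085. MT4 had the widest span, 0.96. Some member genes had further probes whose descriptions lack the chosen words. That of TXNIP had a ratio of 0.96 (adjusted p = 0.0125). DNAJB9 differed between its probes. The member probe had 0.11 (adjusted p = 0.234), 2 further probes of the same transcript had 0.13 and 0.16, and 5 probes of another transcript sequence under its name had -0.24 to -0.33, the brightest of all among them (-0.26, adjusted p = 0.184). None of these 8 passed.

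**Figure D4:**
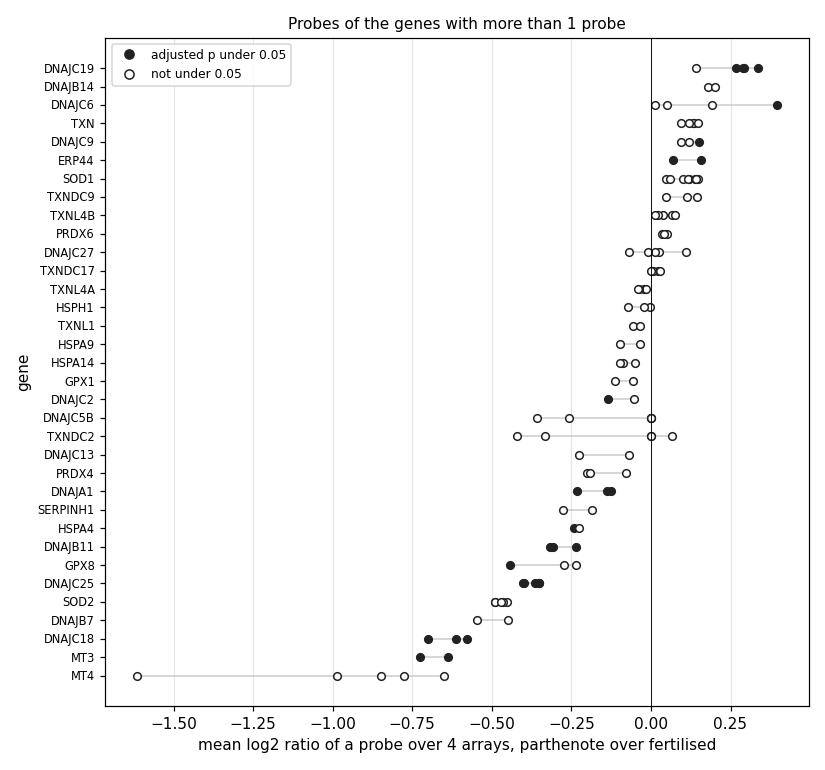
Mean log2 ratio over 4 arrays of each probe (horizontal axis) for the 34 genes with more than 1 probe, filled where the adjusted p of the probe was under 0.05, with a grey line from the lowest to the highest probe. All probes of DNAJB11, DNAJC18, DNAJC25, DNAJA1 and MT3 are filled and lie below 0, and those of DNAJC19 lie above 0 with 4 of 5 filled, a sign that turned for its brightest probe with median centring.

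The other genes of these pathways were taken from lists of named genes, leaving out those already described. In the KEAP1 and NFE2L2 pathway and glutathione metabolism, 29 of 41 listed genes were measured, of which 4 rose and 6 fell (13.8% and 20.7%). These shares stand beside 9.21% and 11.4% over all genes tested, and 13.8% and 15.4% over genes detected in both groups on every array. NFE2L2 is the transcription factor that switches on many antioxidant genes, and KEAP1 holds it inactive. NQO1, a quinone reductase and a much used readout of NFE2L2, had ratios of -1.49, -1.23, -1.25 and -1.28 and fell by 1.31 (SD 0.12, adjusted p = 0.00558). AIFM2, which guards membranes against lipid peroxides, fell by 0.65 (SD 0.14, adjusted p = 0.0162). NNT, which makes NADPH in mitochondria, rose by 0.92 ± 0.18 (adjusted p = 0.0144), and MSRB3, which repairs oxidised methionine, by 0.59 ± 0.16 (adjusted p = 0.0231). The other genes that passed were named after their values were seen. SESN2 (0.44, adjusted p = 0.0493) and IDH2 (0.28, adjusted p = 0.0403) were higher. Lower were NFE2L2 itself (-0.37, -0.39, -0.34 and -0.33, adjusted p = 0.005), the ferritin heavy chain FTH1 (-0.59, adjusted p = 0.00671), SQSTM1 (-0.31, adjusted p = 0.022) and TKT (-0.29, adjusted p = 0.0327). With 1 array left out, NQO1, NFE2L2 and FTH1 stayed under the threshold (at most 0.0471, 0.0376 and 0.0471). The other 7 did not. NNT, AIFM2 and SQSTM1 missed it without array 2, 3 or 4 (highest 0.0748, 0.0894 and 0.105), as did IDH2 (0.154), and MSRB3, TKT and SESN2 missed it whichever array was left out (highest 0.0928, 0.126 and 0.166). KEAP1 had -0.03 ± 0.17 and did not pass, nor did GCLC (0.06) and GCLM (0.21, adjusted p = 0.0529), the subunits that start glutathione synthesis.

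**Figure D5:**
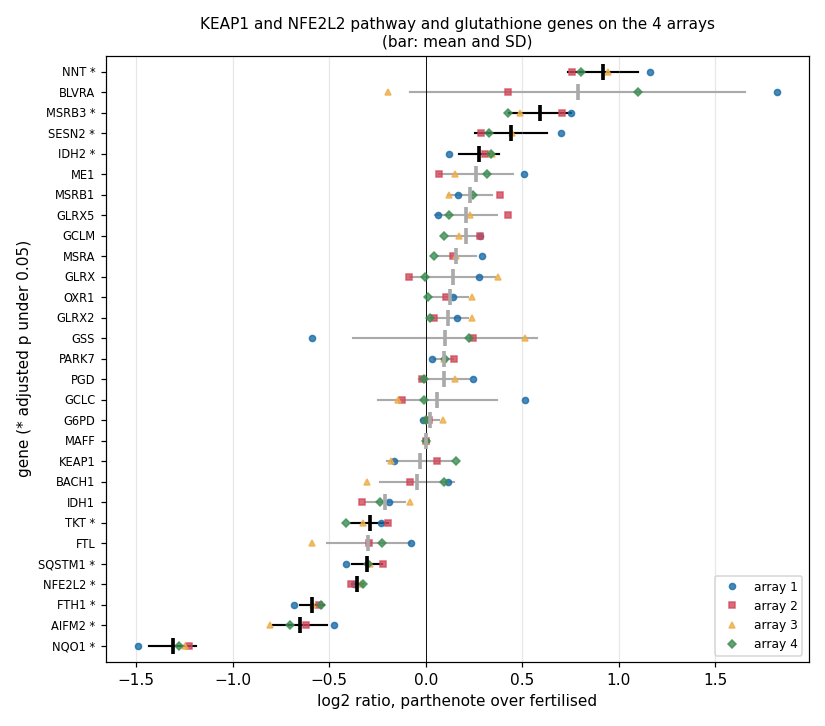
Log2 ratio of parthenote over fertilised embryos (horizontal axis) of the 29 measured genes of the KEAP1 and NFE2L2 pathway and of glutathione metabolism on each of the 4 arrays, with the mean and SD as a bar, black where the adjusted p was under 0.05. NQO1 (-1.31), AIFM2 and FTH1 are lowest among the genes that passed, and NNT (0.92) is highest.

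Co-chaperones, the helpers of HSP70 and HSP90, were measured in 14 of 26 listed genes, of which 2 rose and 3 fell (14.3% and 21.4%). BAG4 (0.40 ± 0.11, adjusted p = 0.0258) and CACYBP (0.22 ± 0.082, adjusted p = 0.0409) rose. CDC37L1 (-0.32 ± 0.091, adjusted p = 0.0258), FKBP4 (-0.27 ± 0.11, adjusted p = 0.0462) and NUDC (-0.27 ± 0.051, adjusted p = 0.0142) fell. Of 12 measured subunits of the chaperonin TRiC and of prefoldin, which fold actin and tubulin, 2 rose and 2 fell (16.7% each). VBP1 (0.32 ± 0.048, adjusted p = 0.0103) and TCP1 (0.23 ± 0.056, adjusted p = 0.0208) were higher, and CCT6A (-0.35 ± 0.077, adjusted p = 0.0169) and PFDN2 (-0.19 ± 0.062, adjusted p = 0.0334) lower. In the folding machinery of the endoplasmic reticulum and its stress response, 4 of 15 measured genes rose and 2 fell (26.7% and 13.3%). SEL1L (0.57 ± 0.14, adjusted p = 0.0189), a part of the complex that removes misfolded proteins, and SIL1 (0.53 ± 0.14, adjusted p = 0.0219), which recharges the HSP70 there, were highest. Calreticulin, CALR (-0.41 ± 0.086, adjusted p = 0.0157), and DERL2 (-0.23 ± 0.070, adjusted p = 0.0286) were lower. All of these adjusted p-values come from limma over all genes tested, of which 9.21% rose and 11.4% fell. None of the calls of these 3 lists held whichever array was left out. The highest adjusted p with 1 array left out was 0.0658 for VBP1, 0.0748 for CALR, 0.0819 for NUDC and 0.0899 for CCT6A, and for the other genes named here between 0.092 (TCP1) and 0.172 (FKBP4). Without array 4 all of them but CALR missed the threshold, and CALR missed it without array 1, 2 or 3.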

How the data were processed

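The 4 arrays were 2-colour Agilent arrays of rabbit blastocyst RNA, and all lay on 1 slide. The authors extracted the spots with Agilent Feature Extraction (10.10.1.1 per the submitters' processing notes). The spot and local background intensities they deposited are not normalized, while their processed intensity is free of background and corrected for dye, array by array. Dim spots carry a surrogate there. The deposited log10 ratio of a spot is processed Cy5 over processed Cy3 and is 0 where both are surrogates. The series' value table, as deposited, holds the same log10 ratios with the sign turned, so as an alternative it tests nothing. No genome build is given in the sources used here.

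The log10 ratios were multiplied to the log2 scale and their sign was turned, so that values above 0 are higher in parthenotes. Control spots and spots marked as outliers were left out, and replicate spots were averaged. A two-sided test of the mean ratio against 0 was made with limma 3.58.1 (R 4.3.3, functions lmFit and eBayes) where 3 or more arrays gave a value. Benjamini-Hochberg adjustment was over 22598 genes by their brightest probe, or over 43595 probes where single probes are compared, with a threshold of 0.05. For the chosen genes the brightest probe was taken among those whose description held the chosen words. Bounds for genes not detected in a group used normexp (offset 50), loess and Aquantile.

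Each ratio pairs the pools of an array. Deviations from the group means correlated by 0.601 to 0.651 between the channels of an array. Between arrays the value was about -0.21, and the centring on the group means by itself makes it negative. The value within an array cannot tell paired pools from channels that share a hybridisation. Ratios of the chosen genes correlated between arrays by 0.719 to 0.815. Symbols came from accessions or gene identifiers in a table of rabbit genes (mOryCun1.1, used for names only) or from the description, and 21511 of 43603 probes had none. Genes of these families with no named probe were not analysed here. The members and lists were chosen with earlier results of these data known. The genes named in full are a list of well known members and, in each of chaperones and antioxidants, up to 8 in each direction with the largest ratio among those past the threshold with 1 sign on all arrays. Further members and genes of interest are named with their values. Ratios of 22598 genes were simulated with independent noise, and only 50 genes were changed at each fold. There limma recovered 11 of 50 genes changed 1.5-fold, 25 of 50 changed 2-fold, 32 of 50 changed 3-fold and 37 of 50 changed 5-fold, with 8 false calls. In the data 2082 genes were called higher and 2575 lower. The Benjamini-Hochberg cutoff depends on how many genes change, so these counts do not give the power in the data. The number of arrays limits the precision. Motifs of promoters were not analysed here. Python 3.11.15 with pandas 2.3.3, numpy 2.4.6, Biopython 1.88 and matplotlib 3.10.9 handled tables, sequences and plots.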

Additional observations from a re-analysis of the deposited data

Results flagged for a closer look

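The 4 ratios of each of the 72 member genes with a spread, and of the other genes of the pathway lists and the close relatives (159 genes in all), were checked for an array far from the others, which chance finds in about 1 of 20 groups. Of the members, 5 had such an array. For HSPA1A, array 1 gave a log2 ratio of 0.47, and the other arrays lay between 0.11 and 0.16. For DNAJC13, array 1 gave 0.15 and the others -0.13 to -0.15. HSF5 had -0.0028 on array 1 and -1.24 to -1.37 on the others. DNAJC11 had -0.18 on array 2 and -0.42 to -0.46 on the others. HSPB7, detected in neither group, had 0.70 on array 4 and 0 on the others. Of the other genes 5 had such an array, with PFDN2 at -0.28 and DNAJC24 at 0.11 on array 1, ERO1A at 0.26 on array 3, and CALR at -0.28 and DNAJC30 at 0.25 on array 4.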

How the results depend on the processing

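Of the 19 called genes, 16 kept their sign under every alternative run and 1, DNAJB11, kept its call under all of them. The main counts were 3 chaperones higher and 9 lower, and 4 antioxidants higher and 3 lower. Centring each array on its median after normexp, with no correction for intensity, gave 5, 28, 8 and 25, moved the median ratio of the chosen genes from -0.02 to -0.71, and called 9285 genes higher and 8906 lower of all genes, against 2082 and 2575. It turned DNAJC19 to -0.70, ERP44 to -0.89, HSF1 to -0.67, HMOX2 to -0.60, PRDX6 to -0.93, SOD1 to -1.42 and TXN to -1.05. The cause was not tested. The ratio of the processed signals gave 5 chaperones higher, and 7 antioxidants higher and 6 lower, with 6647 genes higher and 3946 lower, so that 62.7% of calls were higher, against 44.7%. This ratio also sets surrogate against surrogate, where the deposited ratio is 0. SOD3, NME8 and TXNDC16, detected in neither group, had higher processed signals in the parthenote channel of every array (SOD3 4.04 against 3.11 on array 1). How many of the added calls came from such genes was not counted. The methods' t-test gave 1 chaperone higher and 5 lower (1255 and 1490 of all genes), and an intensity trend with robust estimation 1 higher. Antioxidants called lower were 6 with the local background repaired and loess, and 6 with the dim-probe filter. Without the replicate block, channels were not paired by array, and processed signals with their surrogates took the place of the deposited ratios. There 3 chaperones were higher and 10 lower, and 6 antioxidants higher and 4 lower. Of all genes 5161 were higher and 2716 lower (65.5% higher). The median log2 ratio of all genes was 0.059 here and in the ratio of the processed signals, against 0 in the main setting. These counts therefore do not show the part of the pairing alone. With 1 array left out, which also lowers the number of values, chaperones called were 0 to 1 higher and 1 to 7 lower, and antioxidants 0 to 2 higher and 1 to 4 lower, with 331 to 1220 of all genes higher and 424 to 1488 lower. Sign changes of genes not called in either setting were not taken as reversals. The 7 genes detected in neither group on any array have no usable ratio.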

Other observations

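Some close relatives of these genes carry descriptions without the chosen words and so were not members. Of 16 such genes with a symbol of the same families, listed after the annotation was seen, 3 rose and 3 fell (18.8% each). Over all genes tested 9.21% rose and 11.4% fell, and over those detected in both groups on every array 13.8% and 15.4%. CRYAB, a small heat shock protein of lens and muscle, had log2 ratios of 1.18, 1.53, 1.09 and 1.22 and rose by 1.26 ± 0.19 (SD, n = 4, adjusted p = 0.0103, limma). Without array 4 its adjusted p was 0.0661. The abundant chaperones did not pass. HSP90AB1 of the cytosol had 0.06 ± 0.062, HSP90B1 and HSPA5 of the endoplasmic reticulum 0.26 ± 0.17 and 0.03 ± 0.12, and HSPD1 and HSPE1, the chaperonin of mitochondria, -0.04 ± 0.14 and 0.07 ± 0.19. PRDX1, the cytosolic peroxiredoxin, had -0.08 ± 0.081. The genes called besides CRYAB were DNAJC24 and DNAJC30 (0.24 and 0.37) and DNAJA2, TXNDC15 and HSPBAP1 (-0.27, -0.12 and -0.32), with adjusted p between 0.0145 and 0.0487 in limma. None of these calls held whichever array was left out, with a highest adjusted p of 0.0804 for DNAJC30, 0.0826 for HSPBAP1, 0.145 for DNAJA2, 0.147 for DNAJC24 and 0.172 for TXNDC15.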
